A study of Mus musculus with 4 samples.

Results

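The cytosolic ribosomal protein genes encode the protein part of the ribosome, which joins a small subunit that reads the mRNA to a large subunit that makes the peptide bond. They were taken as the protein coding rows of the count table whose symbol is Rpl or Rps with a number and at most a closing a, l or x, plus Rplp0, Rplp1, Rplp2 and Rpsa. The rule gave 80 of 37620 genes, 48 of the large and 32 of the small subunit, spread over 19 chromosomes. The rule itself uses no measured value. Rpl41 was not analysed here, and Fau, whose product carries a ribosomal protein fused to a ubiquitin-like protein, has another symbol and is given separately.

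RNA-seq was performed on 4 libraries from mouse embryonic stem cells (mESCs), 2 of WT_CTCF and 2 of MUT_CTCF. Both lines descend from CTCF-mAID cells, whose own CTCF carries a degron tag and is destroyed when 0.5 mM auxin is added, for 48 h in the study's protocol. In both, CTCF then came from a vector kept under hygromycin selection, wild type in WT_CTCF and mutated at threonine 668, the O-GlcNAc site, in MUT_CTCF. Each line was 1 picked clone, so clone and mutation cannot be told apart, and the replicates show the spread within a clone. The comparison addressed the question of which transcripts differ when CTCF cannot be O-GlcNAcylated at this residue.

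Ribosomal proteins are needed in near equal numbers, and stem cells that divide quickly make many ribosomes. Most of the mRNAs begin with a cytosine followed by a run of pyrimidines, the 5′ terminal oligopyrimidine (TOP) tract, through which mTOR signalling controls their translation. Proteins that are not built into a ribosome are usually degraded, and free Rpl5 and Rpl11 also bind the p53 regulator Mdm2.

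Start sequences are shown to let the tract be seen at both ends of the fold change order. RefSeq promoter entries (GRCm38.p6) were matched for 59 of the 80 genes. The windows below run 5′ to 3′ from 10 bases before the annotated start to 20 bases from it on, for the 5 genes with the most negative and the 5 with the most positive fold change among those with an entry. Capitals mark a C followed by at least 4 pyrimidines beginning within 5 bases of the start.
Rps27, chr3:90213629-90213658, minus strand: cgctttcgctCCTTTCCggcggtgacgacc
Rpl34, chr3:130730379-130730408, minus strand: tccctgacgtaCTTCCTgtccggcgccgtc
Rps21, chr2:180257369-180257398, plus strand: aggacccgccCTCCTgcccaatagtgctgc
Rps28, chr17:33824543-33824572, minus strand: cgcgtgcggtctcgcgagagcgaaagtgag
Rps27l, chr9:66946076-66946105, plus strand: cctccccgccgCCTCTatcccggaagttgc
Rpl10l, chr12:66284382-66284411, minus strand: cctccattttgcggctggcggtgggcacgc
Rpl5, chr5:107900518-107900547, plus strand: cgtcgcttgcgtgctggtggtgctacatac
Rpl4, chr9:64173377-64173406, plus strand: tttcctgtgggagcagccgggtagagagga
Rps13, chr7:116334171-116334200, minus strand: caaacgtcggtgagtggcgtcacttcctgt
Rpl39l, chr16:10170218-10170247, plus strand: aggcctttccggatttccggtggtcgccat

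The tract was found in 4 of the 5 genes at the negative end and in 0 of the 5 at the positive end, a display chosen by fold change and not tested. Over all 59 genes, 28 held it. The median log2 fold change was -0.072 in these 28 genes, and -0.058 in the 31 without the tract. It stood in 42.3% of the 71 windows of ribosomal protein genes and in 18.3% of all 32851 windows of the table. An annotated start a few bases away from the one used in the cell would hide a tract from this search. In the Rpl39l window shown, a C followed by at least 4 pyrimidines begins just outside the 5 bases searched before the start. In the wider window of 250 bases before and 50 after the start, read on both strands, CCGGAAG was found in 35.2% of the ribosomal protein windows and 8.86% of all windows. ATGGCGG was found in 18.3% and 4.05%, TATAAA in 8.45% and 13.6%, and AGGGGGC, a stretch of the CTCF motif, in 9.86% and 10.6%. AGGGGGC stood at 7 genes, whose median log2 fold change was -0.083, compared with -0.070 in the 52 that lacked it. For TATAAA the medians were -0.085 in 6 genes with it and -0.069 in 53 without. For CCGGAAG they were -0.075 in 24 and -0.058 in 35, and for ATGGCGG -0.063 in 10 and -0.075 in 49. None of these differences was tested. These matches are of letters only, and CTCF binding was not read from them.

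The 4 libraries held 40524694 to 40977464 counts, and their scaling factors lay between 0.994 and 1.01. Ctcf, counted from the exogenous and the endogenous gene alike, stood at 18302 and 18669 normalized counts in WT_CTCF and at 18791 and 19325 in MUT_CTCF. The 11 embryonic stem cell markers summed to 6761 to 6825 CPM (counts scaled to a common library size) in WT_CTCF and 6731 to 6735 in MUT_CTCF, with 1 higher and 2 lower. The 8 fibroblast or feeder markers summed to 24.9 to 25.5 and 26.3 to 30.7 CPM with 1 of them at 0, and the 6 primitive endoderm markers to 528 to 532 and 504 to 521, and in neither list did a marker pass the test (edgeR). The 5 trophectoderm markers summed to 48.9 to 52.5 and 41.3 to 43.1 CPM, with 2 lower. The part of these small shifts in the results below was not tested. In bulk RNA, fewer cells of a kind and less RNA per cell cannot be told apart.

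Transcripts of 24 ribosomal protein genes fell in MUT_CTCF relative to WT_CTCF, and 0 rose. The changes were small, from -5.63% (Rps12) to -17.9% (Rps27), and the small subunit held 15 of them. Of the 80 genes, 72 had a fold change below 0, against 7997 of all 16264 tested genes. The median of the 80 was -0.072 on the log2 scale, a fall of 4.89%. The lowest and highest values were -0.28 (Rps27) and 0.085 (Rpl29). A gene was called at an adjusted p under 0.05 in edgeR's quasi-likelihood test, with Benjamini-Hochberg adjustment over all 16264 genes tested, and all 80 were among those.

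The background for these counts was 1.61% of all tested genes called lower and 1.56% called higher. Nearly all ribosomal protein genes are abundant, 79 of them with a mean of at least 1000 normalized counts. Among the 6461 tested genes at that level, 3.45% were called lower and 2.46% higher, and the median log2 fold change was -0.016. Against these shares stand the 24 of 80 ribosomal protein genes called lower. Of the 6461 abundant genes 3718 had a fold change below 0, next to 72 of the 80. At an unadjusted p under 0.05 in the edgeR test, 54 of the 80 were lower and 0 higher. Over all 16264 tested genes 1245 were lower and 1238 higher at that threshold, and over the 6461 abundant ones 908 and 555. DESeq2 called 18 of the 80 lower and 0 higher. The study's own criterion also asks that the level change by more than a factor of 2, at an unadjusted p under 0.05. No ribosomal protein gene met it, against 1.3% of all tested genes.

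The calls needed both MUT_CTCF libraries. When either of them was left out, edgeR called 0 ribosomal protein genes and 0 genes of any kind, while 45 (MUT_CTCF replicate 1 left out) and 38 (replicate 2 left out) ribosomal protein genes had an unadjusted p under 0.05. Without WT_CTCF replicate 1 the count was 4, and without WT_CTCF replicate 2 it was 16. The direction was less dependent on the library, since 68 to 75 of the 80 genes stayed below 0 in these 4 fits. Testing every gene with no filter on low counts also gave 0 calls, with 51 at an unadjusted p under 0.05.

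**Figure D1:**
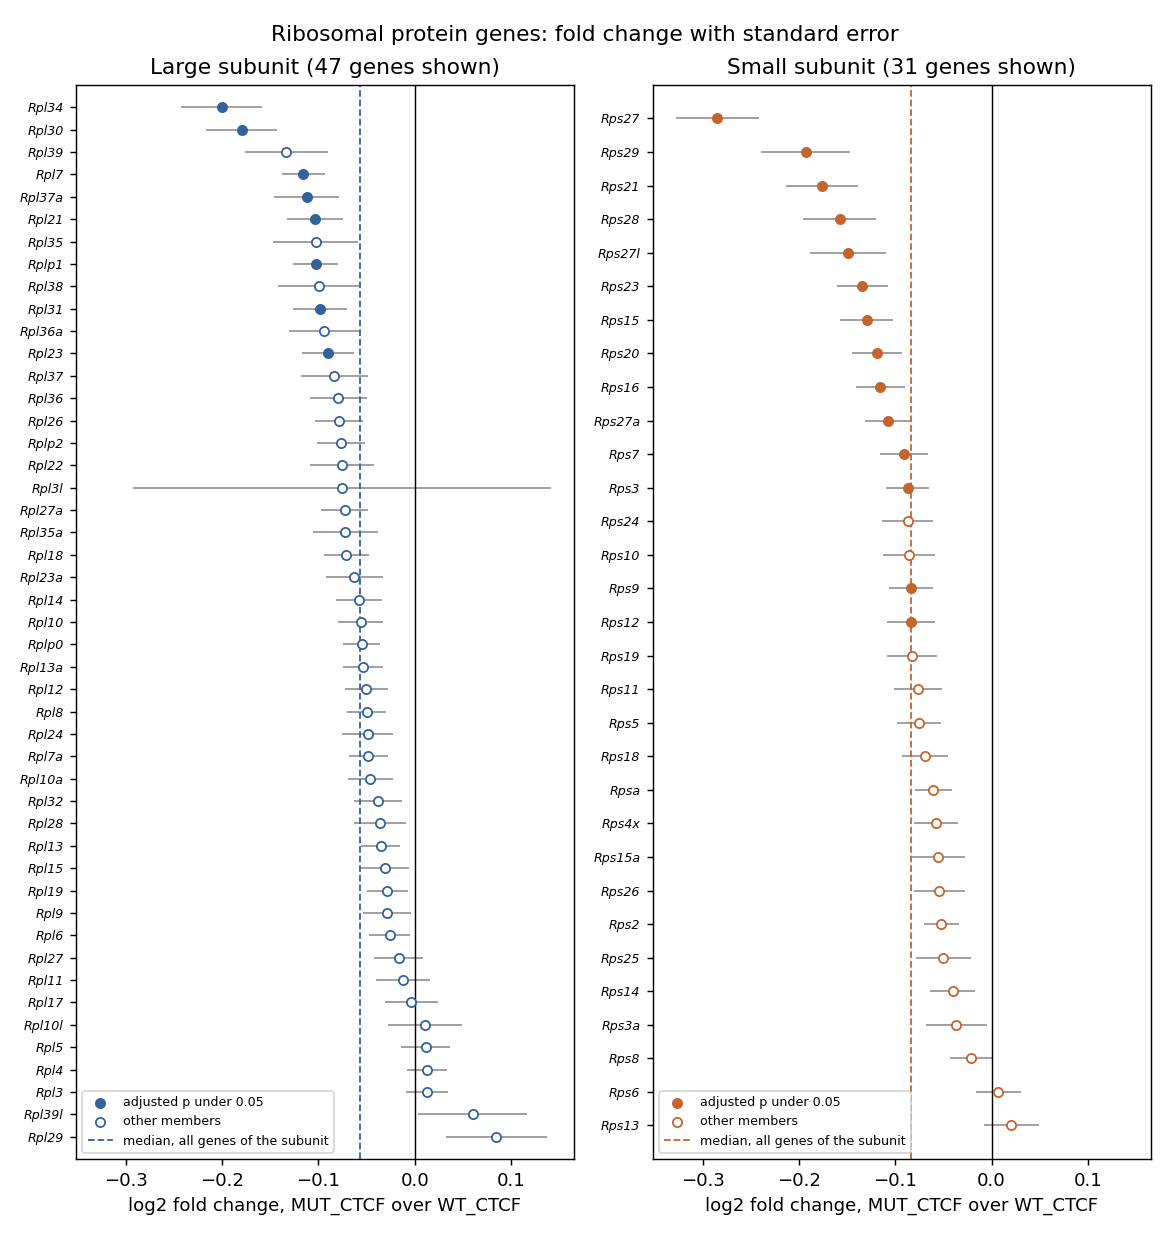
Log2 fold change (MUT_CTCF over WT_CTCF, horizontal axis) of 47 large and 31 small subunit genes, with bars for the standard error of the fit, filled points for an adjusted p under 0.05 and dashed lines for the medians of all 48 and 32 genes. Points lie left of 0 for 41 large and 29 small subunit genes, with Rps27 at -0.28 farthest left, and the wide bar belongs to Rpl3l, the gene with the fewest counts.

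Both MUT_CTCF libraries lay below both WT_CTCF libraries for 62 of the 80 genes, against 22.3% of all tested genes and 31.7% of the abundant ones. Both lay above in 1 gene, Rps13, against 22.3% of all tested genes. Among 401 other abundant genes with a coding transcript under 1000 bases, 50.4% had the lower pattern, next to 77.5% of the 80 genes. The replicates of WT_CTCF were themselves unequal. WT_CTCF replicate 1 was higher than replicate 2 for all but 7 of the 80 genes, with a median log2 difference of 0.033, whereas replicate 1 of MUT_CTCF was below replicate 2 for 36 of 80, with a median of 0.0068. Taken library against library, the medians of MUT_CTCF minus WT_CTCF were -0.080 and -0.086 against WT_CTCF replicate 1, and -0.048 and -0.050 against WT_CTCF replicate 2. The difference between lines was therefore larger than that between replicates in all 4 pairs of libraries, and its size depended on the WT_CTCF library used.

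Summed over the 80 genes, ribosomal protein mRNA took 6.92% and 6.80% of all counts in WT_CTCF and 6.64% and 6.63% in MUT_CTCF. The groups did not overlap, with means of 6.86% ± 0.087 and 6.64% ± 0.0081 (SD, n = 2 each). An exact two-sided permutation test of 2 against 2 libraries cannot give less than p = 0.333, which is the value here. Leaving out the genes of the mitochondrial genome, which took 1.73% to 1.88% of counts, gave 6.98% ± 0.089 and 6.76% ± 0.014. The count table also holds 162 pseudogenes named after these genes. They took 0.0378% of counts in WT_CTCF and 0.0364% in MUT_CTCF, so few reads were assigned to such copies when only unique reads were counted. Pseudogenes under other names were not included. Reads that align equally well to a gene and to a pseudogene were not counted, and how many the 80 genes lost in this way was not measured.

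The small subunit genes had a more negative median than the large subunit genes. Of the 32 small subunit genes, 15 fell and 30 were below 0, with a median of -0.084. Of the 48 large subunit genes, 9 fell and 42 were below 0, with a median of -0.057. Below 0 were 7997 of all 16264 tested genes and 3718 of the 6461 abundant ones, with 1.61% and 3.45% called lower. Both MUT_CTCF libraries were below both WT_CTCF libraries for 87.5% of the small and 70.8% of the large subunit genes. The same pattern was found in 22.3% of all tested genes and in 31.7% of the abundant ones. The summed CPM of the small over that of the large subunit was 0.703 and 0.705 in WT_CTCF and 0.694 and 0.693 in MUT_CTCF. These ratios, 0.704 ± 0.0016 and 0.694 ± 0.00070 (SD, n = 2 each), did not overlap, and the exact permutation test again gave its smallest value, p = 0.333. As medians of log2 CPM, small minus large was -0.142 and -0.164 in WT_CTCF and -0.165 and -0.225 in MUT_CTCF. By this measure WT_CTCF replicate 2 and MUT_CTCF replicate 1 were nearly equal. The small minus large difference of the median log2 fold changes was -0.027. It ranged from -0.035 to -0.014 when single libraries were left out, the lowest size being without WT_CTCF replicate 1.

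**Figure D2:**
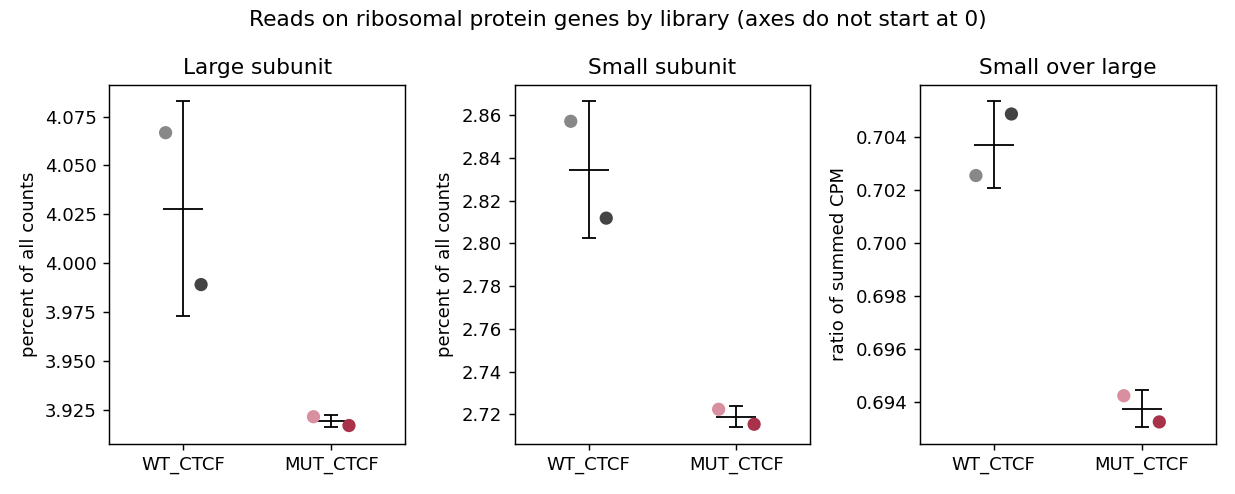
Percent of all counts on large subunit genes (left), on small subunit genes (middle) and the ratio of their summed CPM (right), with a point for each library and bars for the mean and SD of 2 libraries. The axes do not start at 0. Both MUT_CTCF libraries lie below both WT_CTCF libraries in each panel, by shares of 3.92% against 3.99% and 4.07% for the large subunit and 2.72% against 2.81% and 2.86% for the small.

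Rps27 (ENSMUSG00000090733, mm9 chr3:90016593-90017573), a zinc-binding protein of the small subunit, had the most negative fold change. It stood at 7413 and 7370 normalized counts in WT_CTCF and at 6522 and 5611 in MUT_CTCF. Both MUT_CTCF libraries were low, but replicate 2 was clearly the lower. The log2 fold change was -0.28 (SE 0.043, adjusted p = 7.89e-06). Leaving out MUT_CTCF replicate 2 made it -0.18, and leaving out replicate 1 made it -0.40, neither called, and DESeq2 gave an adjusted p of 0.129. Over the alternatives the adjusted p ran from 2.18e-11 to 0.398. Its paralog Rps27l, a target of p53, stood at 6656 and 6702 in WT_CTCF and at 6157 and 5890 in MUT_CTCF. The groups did not overlap, and the fold change was -0.15 (SE 0.039, adjusted p = 0.021).

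Rps29 (ENSMUSG00000034892, chr12:70258709-70260173), another small zinc-binding protein of the small subunit, had 4673 and 4833 normalized counts in WT_CTCF and 4349 and 3966 in MUT_CTCF. Rps21 had 8689 and 8436 against 7836 and 7323. Rps28 had 7243 and 7438 against 6696 and 6464. In all 3 genes both mutant libraries lay below both wild type libraries and replicate 2 was the lower of the mutant libraries. Their log2 fold changes were -0.19 (SE 0.047, adjusted p = 0.0089), -0.18 (SE 0.037, adjusted p = 0.0021) and -0.16 (SE 0.038, adjusted p = 0.0089). Rps28 shares 6.01% of its exon positions with Kank3 on the opposite strand, and the strand setting of the counting is not given in the sources used here.

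Rps23 and Rps15, also among the 10 largest falls, were more abundant small subunit genes. Rps23, which lies in the decoding centre, had 25842 and 25293 normalized counts in WT_CTCF and 23220 and 23373 in MUT_CTCF. Rps15, needed for export of the small subunit from the nucleus, had 24556 and 23504 against 22026 and 21901. Each fell by 0.13 on the log2 scale, with SE of 0.026 and 0.027 and adjusted p of 0.00081 and 0.0021. No groups overlapped, and in both genes the mutant replicates lay close to each other.

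On the large subunit Rpl34 (ENSMUSG00000062006, chr3:130429749-130433316) and Rpl30 (ENSMUSG00000058600, chr15:34370260-34373395) had the most negative values. Rpl34 had 5824 and 5786 normalized counts in WT_CTCF and 4885 and 5219 in MUT_CTCF. Rpl30 had 8201 and 7915 against 7186 and 7040. Unlike in Rps27, MUT_CTCF replicate 1 was the lower library in Rpl34. The log2 fold changes were -0.20 (SE 0.042, adjusted p = 0.0021) and -0.18 (SE 0.037, adjusted p = 0.0014).

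**Figure D3:**
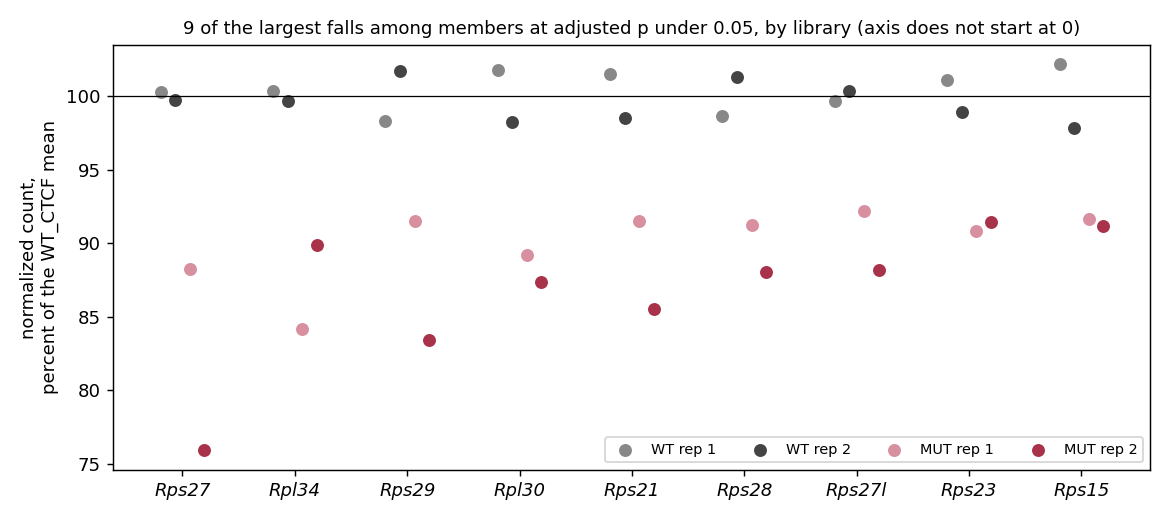
Normalized count in each library as a percent of the WT_CTCF mean (vertical axis, not starting at 0) for 9 of the 10 largest falls among ribosomal protein genes at an adjusted p under 0.05. All MUT_CTCF points lie below all WT_CTCF points in each gene, and the lowest point is Rps27 in MUT_CTCF replicate 2, with 5611 normalized counts against a WT_CTCF mean of 7392. The genes were chosen by the test on these same libraries.

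Outside the 10 largest falls, 13 genes that passed the test were Rps20, Rpl7, Rps16, Rpl37a, Rps27a, Rpl21, Rplp1, Rpl31, Rps7, Rpl23, Rps3, Rps9 and Rps12. Their log2 fold changes ran from -0.12 to -0.084 and their adjusted p from 0.00062 to 0.048. Over all 24 genes, both MUT_CTCF libraries were below both WT_CTCF libraries in 23, the exception being Rpl37a. The 24 were chosen by the test on these same libraries, so the pattern follows largely from that choice. It was found in 22.3% of all tested genes and in 31.7% of the abundant ones. Rpl31 shares 39.5% of its exon positions with Tbc1d8 on the opposite strand and Rps27a 8.11% with 1700034F02Rik, so reads of these overlaps may be uncertain. Rps12 was the called gene with the smallest fall and was lost in 8 of 12 alternatives.

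The acidic stalk of the large subunit recruits the elongation factors, and its 3 proteins lay on both sides of the threshold. Rplp1 fell, from 52489 and 50802 normalized counts to 47156 and 49045 (log2 fold change -0.10, SE 0.023, adjusted p = 0.0052). Rplp2 had 31192 and 31196 in WT_CTCF and 29183 and 29974 in MUT_CTCF (-0.077, SE 0.025, adjusted p = 0.083). Rplp0, which anchors the other two, had 102834 and 101176 against 98276 and 98107 (-0.055, SE 0.019, adjusted p = 0.11). All 3 genes had mutant libraries below wild type libraries, and whether their fold changes differ from each other was not tested.

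Rpl5 and Rpl11, which enter the ribosome together with a ribosomal RNA, did not pass the test. Rpl5 had 31073 and 30559 normalized counts in WT_CTCF and 31592 and 30523 in MUT_CTCF, with a log2 fold change of 0.011 (SE 0.025, adjusted p = 0.90). Rpl11 had 21794 and 20910 against 21598 and 20747, with -0.012 (SE 0.028, adjusted p = 0.90). The groups of both genes overlapped, and the sign of each changed when a library was left out. Rpl5 shares 24.3% of its exon positions with a coding gene on the other strand.

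Among the highest fold changes were also Rpl29 and Rpl39l on the large subunit and Rps13 and Rps6 on the small. Rpl29 had 3633 and 3386 normalized counts in WT_CTCF and 3472 and 3972 in MUT_CTCF, with 0.085 (SE 0.053, adjusted p = 0.48). Its groups overlapped, and without MUT_CTCF replicate 2, the highest library, it was -0.017. Rps13 had 18411 and 18378 against 18851 and 18466, with 0.021 (SE 0.028, adjusted p = 0.81). Rps6, the substrate of the S6 kinases, had 39365 and 39557 against 39236 and 40070, with 0.0070 (SE 0.024, adjusted p = 0.94), and its groups overlapped.

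Paralogs with a tissue-restricted use did not pass the test. Rpl3, a core protein near the peptidyl transferase centre, had 59714 and 58262 normalized counts in WT_CTCF and 59434 and 59584 in MUT_CTCF, with a log2 fold change of 0.013 (SE 0.022, adjusted p = 0.86). Its muscle paralog Rpl3l had 136 and 158 against 127 and 153, with -0.075 (SE 0.22, adjusted p = 0.92). The standard error shows how little these counts can resolve for Rpl3l. Rpl10, X-linked and added late in assembly, had 44464 and 43923 against 42429 and 42579, with -0.056 (SE 0.023, adjusted p = 0.21). Rpl10l, its intronless copy known from testis, had 7537 and 7115 against 7156 and 7603, with 0.010 (SE 0.039, adjusted p = 0.94). The groups of Rpl10 did not overlap and those of Rpl10l did. Rpl39, a protein of the exit tunnel, had 5930 and 5766 against 5586 and 5077, with -0.13 (SE 0.043, adjusted p = 0.077). Its paralog Rpl39l, known from the male germ line, had 2834 and 2547 against 2818 and 2791, with 0.060 (SE 0.056, adjusted p = 0.69). The difference between a paralog and its partner was not tested in these pairs. Reads that align equally well to several copies were not counted, so the levels of close paralogs are uncertain. Rps4x, the X-linked gene of its pair, had 48072 and 47237 against 46406 and 45152, with -0.058 (SE 0.023, adjusted p = 0.18).

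Some ribosomal proteins are made as fusions to ubiquitin or a ubiquitin-like protein. Rps27a, which counts among the 80, fell from 43190 and 42220 normalized counts to 40194 and 39074 (log2 fold change -0.11, SE 0.024, adjusted p = 0.0038). Fau had 19467 and 19000 against 17949 and 18723, with -0.069 (SE 0.029, adjusted p = 0.22). In both genes the MUT_CTCF libraries lay below the WT_CTCF libraries. Rpl22l1, a paralog outside the rule by its name, had 2428 and 2467 against 2336 and 2113, with -0.14 (SE 0.060, adjusted p = 0.25).

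Levels were compared between genes as CPM per kilobase of merged exons in WT_CTCF. The highest were Rpl8 at 2743 ± 23.0, Rplp1 at 2558 ± 59.1 and Rpl19 at 1549 ± 16.5 on the large subunit (SD, n = 2), and Rps2 at 2013 ± 0.39, Rps12 at 1796 ± 50.1 and Rpsa at 1486 ± 13.9 on the small. Neighbours among these 3 in each subunit differed by more than their SDs. The lowest were Rpl3l at 2.26 ± 0.24, Rpl30 at 65.4 ± 1.64 and Rpl39l at 79.4 ± 6.0 on the large subunit and Rps15a at 81.9 ± 1.11, Rps28 at 123 ± 2.31 and Rps19 at 141 ± 0.73 on the small. Rpl39l and the next gene, Rpl35a at 79.8 ± 0.39, did not differ beyond their SDs. The order rests on the length used, since merged exons include rare long transcripts. Per kilobase of the annotated coding transcript, a choice made after seeing the data, Rps15a stood at 801 CPM and Rpl30 at 347, while Rpl3l stayed lowest at 2.63. Of these 6 highest genes, Rplp1 and Rps12 passed the test. Rps2 had 150314 and 150273 normalized counts in WT_CTCF and 142499 and 147372 in MUT_CTCF (log2 fold change -0.052, SE 0.018, adjusted p = 0.11). Rpsa, also known as the laminin receptor, had 113544 and 112047 against 107952 and 108404 (-0.060, SE 0.019, adjusted p = 0.061). Rpl8 had 97018 and 95873 against 91040 and 95280 (-0.050, SE 0.020, adjusted p = 0.20), Rpl19 had -0.029 (adjusted p = 0.58), and in none of these 4 genes did the groups overlap.

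Short transcripts had the most negative fold changes. All 15 ribosomal protein genes with a coding transcript under 500 bases were below 0 (median -0.10 on the log2 scale), and 8 of them fell. Of 47 genes with 500 up to 1000 bases 11 fell, with a median of -0.058, and of 18 with at least 1000 bases 5 fell, with a median of -0.058. Of all tested genes of these 3 lengths, ribosomal protein genes included, 5.98%, 3.31% and 1.54% were called lower. Across the 80 genes, which share libraries and are not independent, Spearman's rho of fold change with transcript length was 0.37, and with merged exon length 0.16. With the mean normalized count it was 0.33. Across the 80 genes, length also went with the difference between the replicates of MUT_CTCF (rho -0.36 for replicate 1 minus replicate 2). It went little with that between the replicates of WT_CTCF (-0.023). Over all 14652 tested coding genes, these rho were 0.0088 for MUT_CTCF and -0.072 for WT_CTCF, and that of fold change with length was 0.11.

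Short transcripts in general also had medians below 0. Over all tested genes, the median log2 fold change was -0.056 under 500 bases (184 genes) and -0.044 from 500 up to 1000 bases (1118 genes). From 1000 bases on it was 0.0081 (13350 genes). These 3 groups include 15, 47 and 18 of the ribosomal protein genes. Among 401 other abundant genes with a transcript under 1000 bases, the median was -0.062, 319 were below 0, and 26 (6.48%) were called lower and 2 higher. The median of the ribosomal protein genes, -0.072, thus lay close to that of other abundant genes with short transcripts, while the share called lower, 24 of 80, was above 26 of 401. Count levels were not matched between these groups of genes. The 24 called genes had WT_CTCF means of 4753 to 62361 normalized counts, while the floor for the 401 others was a mean of 1000. The parts of transcript length and of count level in the result were not tested.

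**Figure D4:**
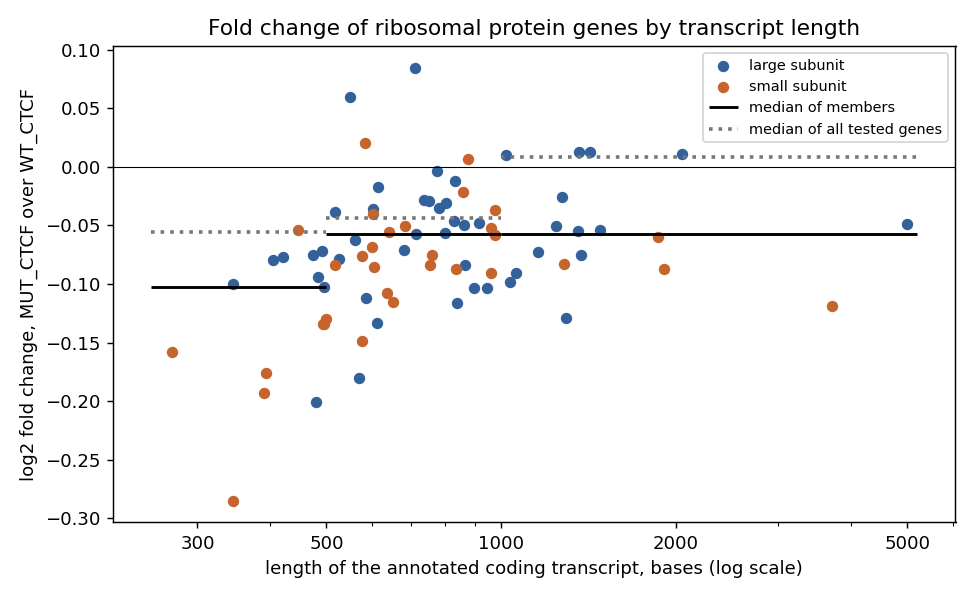
Log2 fold change (vertical axis) against the length of the annotated coding transcript in bases (log scale) for the 80 ribosomal protein genes, coloured by subunit. Solid lines give the medians of ribosomal protein genes under 500, from 500 up to 1000 and from 1000 bases on (-0.10, -0.058 and -0.058), and dotted lines those of all tested genes (-0.056, -0.044 and 0.0081).

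Genes that build ribosomes also had a median below 0. Of 95 listed genes for ribosome production 89 were tested, 6 fell (6.74%), 0 rose (edgeR; 0 higher at an unadjusted p under 0.05), and 69 were below 0, the median being -0.052 on the log2 scale. Of all 16264 tested genes 1.61% were called lower and 7997 were below 0, and of the 6461 abundant ones 3.45% and 3718. Npm1, the nucleolar chaperone nucleophosmin, had 47604 and 46316 normalized counts in WT_CTCF and 43096 and 40459 in MUT_CTCF, with -0.17 (SE 0.025, adjusted p = 3.83e-06). Mdn1, the AAA ATPase that remodels precursors of the large subunit, had 10043 and 10099 against 9300 and 8897, with -0.15 (SE 0.035, adjusted p = 0.0071). Wdr43, a factor of the small subunit processome, had 5617 and 5506 against 4938 and 4976, with -0.17 (SE 0.042, adjusted p = 0.014). In all 3, picked for the smallest p of the list, the groups did not overlap. Their coding transcripts have 1633, 17970 and 3450 bases, and the part of length in the values of this list was not tested. The call was lost in 3 of 12 alternatives for Npm1, in 5 for Mdn1 and in 5 for Wdr43.

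Of 26 listed other genes with a 5′ TOP tract 25 were tested, 4 fell, 1 rose and 22 were below 0 (median -0.053 on the log2 scale). The share called lower was 16.0%, where all tested genes had 1.61% lower and 1.56% higher and the abundant ones 3.45% and 2.46%. A fold change below 0 was found in 7997 of all 16264 tested genes and in 3718 of the 6461 abundant ones. Npm1 belongs to both lists. Eef1b2, an exchange factor for elongation factor 1, fell from 46942 and 44897 normalized counts to 42883 and 42591 (-0.10, SE 0.024, adjusted p = 0.0055). Its call was lost in 4 of 12 alternatives. Pabpc1, the cytoplasmic poly(A) binding protein, went the other way, from 102891 and 102657 to 108740 and 108635 (0.081, SE 0.019, adjusted p = 0.0065). Both MUT_CTCF libraries were higher for Pabpc1, but the call was lost in 6 of 12 alternatives, among them edgeR's exact test (adjusted p = 0.13) and the fit with no filter (adjusted p = 0.18), with a range of 0.0012 to 0.40.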

How the data were processed

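RNA of 4 mESC libraries, 2 biological replicates of each of 2 lines, was sequenced, and the study describes it as total mRNA. The authors trimmed reads with Trim Galore 0.4.4, aligned them to mm9 with STAR and counted unique reads per gene with HTSeq 0.9.1. The strand setting was not given in the sources used here. The deposited table holds whole-number counts, not normalized. A second deposited table holds the authors' own edgeR fold changes, average log2 CPM, p-values and FDR and was not used. Gene names came from GENCODE M1, which named 37205 of 37620 IDs.

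Counts were fitted with edgeR 4.0.16 in R 4.3.3 (TMM scaling, filterByExpr with a minimum count of 10, quasi-likelihood test), which kept 16264 genes. MUT_CTCF was compared with WT_CTCF without a replicate block, and a call is an adjusted p under 0.05. Normalized counts are counts over TMM-scaled library sizes at the mean library size. Alternatives used DESeq2 1.42.0 among others. Coding transcript length is that of the GENCODE M1 transcript with the longest coding sequence, the shorter one at a tie. At 2 libraries a group the error covers only the spread between cultures of 1 clone.

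The members and lists were chosen with earlier results of these data known. Genes are named by rule: the 10 largest falls among called members, the 3 highest and lowest levels and the 2 highest and lowest fold changes in each subunit, stalk genes, Rpl5, Rpl11, Rps27a, paralogs and fusions, and the 3 smallest p of each list. Rpl4, Tbc1d8 and Kank3, the called genes listed without values, and the marker sums were added to these. Some genes that the rule names are not reported here; they stay in all counts, sums and medians.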

Additional observations from a re-analysis of the deposited data

How the results depend on the processing

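The 80 genes kept a negative median in all fits, with 68 to 75 below 0. The 24 calls became 24 with DESeq2 size factors, 26 with TMM computed without these genes, 25 with at least 10 counts in every library, 17 with library size only and 18 in DESeq2. EdgeR's exact test gave 15 (4 of the large subunit), library size only 5 of the large subunit, and no filter 0, 0 for the large and 0 for the small subunit. For all tested genes, lower calls were 152 with library size only, 161 in DESeq2 and 3 without a filter, and higher calls 141 in DESeq2 and 26 without a filter, against 262 and 253. The unadjusted p with a fold above 2 gave 0 calls. Leaving out single libraries, with the lone library assumed to vary like the others, gave 0 to 16 calls, 0 to 6 in the large and 0 to 10 in the small subunit, 0 to 102 lower and 0 to 140 higher of all genes, small subunit medians of -0.10 to -0.059 and a small minus large difference of -0.035 to -0.014. The cause of these losses was not tested, beyond the smaller number of libraries.

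With a replicate block 34 of the 80 were called (13 large, 21 small), with all 24 calls kept, and 372 lower and 326 higher of all genes. Same-numbered libraries did not deviate together (Pearson's r -0.020 over genes), so the numbers were not taken as pairs.

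Among the named genes the sign reversed in 8, none of them called. With library size only Rpl11 was 0.00032. With single libraries left out, the log2 fold change of Rpl11 ran from -0.043 to 0.018, of Rpl10l from -0.035 to 0.054, of Rpl3 from -0.0060 to 0.030 and of Rpl39l from -0.016 to 0.14. That of Rpl3l ran from -0.22 to 0.052, of Rpl5 from -0.014 to 0.034, of Rpl29 from -0.017 to 0.18 and of Rps6 from -0.0097 to 0.022. At 2 libraries a group, changes of a few percent sit near the limit of these data.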
